A study of Mus musculus with 14 samples.

Results

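The genes described here encode the machinery of mitosis: the cyclin-dependent kinase that starts it, the kinases that order its steps, the spindle and its motors, the kinetochore, the condensins and the factors that release anaphase. They were taken from a list of 54 genes with these functions, made with earlier results of these data known. Of these, 53 were measured as 1 gene, by at least 1 probeset that names that gene alone, out of 23102 genes measured in that way. Ccnb1, the gene of cyclin B1, was not analysed here. The value of a gene is the median log2 level of its probesets, so a difference of 1 is a 2-fold difference.

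A cell enters mitosis when Cdk1, bound to a cyclin and freed of inhibitory phosphate by a Cdc25 phosphatase, phosphorylates its targets. Chromosomes then condense, kinetochores attach to spindle microtubules, and the spindle checkpoint holds the anaphase-promoting complex inactive until every kinetochore is attached. Most genes of this machinery are switched on together in late S phase and G2, by the MuvB complex with B-Myb (Mybl2) and by FoxM1, and are repressed in resting cells by the related DREAM complex. Both act at a promoter element named CHR. In neural stem cell cultures the summed level of such genes is widely used as a sign of how many cells divide, and EGF is a mitogen of these cultures. Cic, known as Capicua, is a transcriptional repressor that is relieved by receptor tyrosine kinase signalling through ERK.

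The cells were neural stem cell cultures of postnatal day 4 mice, made from the zone beneath the lining of the lateral ventricle (subventricular), which holds dividing stem and progenitor cells. Each of 7 cultures came from 1 animal, is called a clone in the labels, and was transduced with adenoviral Cre. Clones 1 to 4 were Cic+/+ controls, so the controls had met Cre as well. Clones 5 to 7 carried a floxed Cic allele on both chromosomes (Cicflox/flox) and are labelled Cic-/- after Cre. Each clone was kept for 24 hours in NeuroCult proliferation medium with EGF or in the same medium without EGF. That gives 4 Cic+/+ and 3 Cic-/- arrays in each medium, 14 in all, and the 2 arrays of a clone share their animal.

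Cic was lower by 1.97 ± 0.15 (log2 difference ± SE) in the Cic-/- clones with EGF, and the limma adjusted p was 3.25e-05. Without EGF the difference in Cic was -2.16 ± 0.15, with an adjusted p of 9.41e-06. Array medians lay between 6.49 and 6.54, and no pair of arrays was identical. The 9 measured neural stem cell markers averaged 10.18 to 10.59 in every array. Markers of myelinating oligodendrocytes averaged 7.52 to 7.997 in the Cic+/+ clones without EGF and 5.70 to 6.41 in the other arrays. The 6 measured microglial markers averaged 4.87 to 5.21 in every array, against 4.40 for the limit below which a gene counted as dim. Of these markers, Cx3cr1, Csf1r, P2ry12 and Tmem119 lay above that limit, and Aif1 and Ptprc lay below it.

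Some of the promoters of these genes hold the letters of the CHR, the element through which such genes are known to be switched on and off together. RefSeq promoter windows of the build GRCm38.p6, 250 bases before the start and 50 after, were found for 45 of the 54 listed genes. Shown first are the 120 bases before the start in 4 of them, 5′ to 3′ on the gene's strand, with the CHR letters TTTGAA and the CCAAT box, or its complement ATTGG, in capitals. Cdc20 (chr4:118437344-118437463, minus strand) holds a TTTGAA between a pair of CCAAT boxes. Cdk1 (chr10:69352913-69353032, minus strand) holds the TTTGAA at 2 places. Plk1 (chr7:122159315-122159434, plus strand) holds a CCAAT box here and its TTTGAA after the start. Pttg1 (chr11:43425982-43426101, minus strand) is shown because its expression departs from that of the other genes, and holds neither in this stretch. The windows of Birc5, Kif18a, Mad2l1, Melk, Mybl2, Ncaph, Nuf2 and Plk4 hold neither as well. A link between these letters and expression was not tested.
Cdc20: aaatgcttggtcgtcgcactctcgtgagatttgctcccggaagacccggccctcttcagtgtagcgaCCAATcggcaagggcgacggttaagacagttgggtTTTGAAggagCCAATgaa
Cdk1: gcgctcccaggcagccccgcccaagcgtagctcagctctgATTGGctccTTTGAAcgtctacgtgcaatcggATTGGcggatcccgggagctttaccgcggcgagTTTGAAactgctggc
Plk1: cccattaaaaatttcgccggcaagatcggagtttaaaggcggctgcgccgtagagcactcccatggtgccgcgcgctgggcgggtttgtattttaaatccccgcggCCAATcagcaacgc
Pttg1: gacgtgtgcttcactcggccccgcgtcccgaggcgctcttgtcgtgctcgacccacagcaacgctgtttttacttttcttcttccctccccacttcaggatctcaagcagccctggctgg

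Matches just past the start are shown for 3 genes in stretches of 30 bases, with the match in capitals. Ccnb2 (chr9:70421525-70421554, minus strand) and Plk1 (chr7:122159453-122159482, plus strand) carry TTTGAA, and Bub1 (chr2:127831828-127831857, minus strand) carries the variant TTCGAA.
Ccnb2: ggtaTTTGAAtcgcggaccgggcggtggac
Plk1: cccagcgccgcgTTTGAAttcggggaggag
Bub1: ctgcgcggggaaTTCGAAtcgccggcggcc

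Over the whole 300-base window and on both strands, TTTGAA occurred in 28 of the 45 promoters (62.2%) and in 20.2% of all 27025 genes with a window. Within 50 bases of the start, a distance chosen after the positions were seen, it occurred in 26 (57.8%), against 5.7% of all genes. The variant TTCGAA occurred in 5 of the 45 windows (11.1%, all genes 1.8%) and CCAAT in 31 (68.9%, all genes 41.1%). The octamers TGAATGAA and TGAATGGA, by which Cic is known to bind DNA, occurred in 0 of the 45 windows, against 1.5% and 1.4% of all genes. At such low shares of all genes, 0 of 45 windows does not set the mitotic genes apart. A match is a match of letters and not a measured binding site. The 31 measured genes with TTTGAA or TTCGAA had a median genotype difference with EGF of -0.73, and the 13 measured genes with a window and neither had -0.81.

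With EGF, every one of the 53 mitotic genes averaged lower in the Cic-/- clones than in the Cic+/+ clones. The median log2 difference was -0.75, and differences ran from -1.49 for Aurkb to -0.12 for Pttg1. In all, 47.3% of the 17326 genes tested had a difference below 0. At least 1.5-fold lower were 39 of the 53 (73.6%, all genes 3.64%), and at least 2-fold lower were 13 (24.5%, all genes 1.02%). In 21 (39.6%) all 3 Cic-/- arrays lay below all 4 Cic+/+ arrays, against 5.89% of all genes.

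The size of these differences did not carry any of the genes past the test. In limma, with Benjamini-Hochberg adjustment over all genes tested, 0 of the 53 passed at an adjusted p under 0.05, while 0.306% of all genes did. At an unadjusted p under 0.05, 25 were lower (47.2%, all genes 5.51%) and 0 were higher (all genes 5.11%). The smallest adjusted p among them was 0.122, for Birc5, and it ranged from 0.058 to 0.353 over the alternative settings. The median SE of a mitotic gene was 0.36, against 0.20 over all genes. In bulk RNA, fewer dividing cells and less of these transcripts per dividing cell cannot be told apart.

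**Figure D1:**
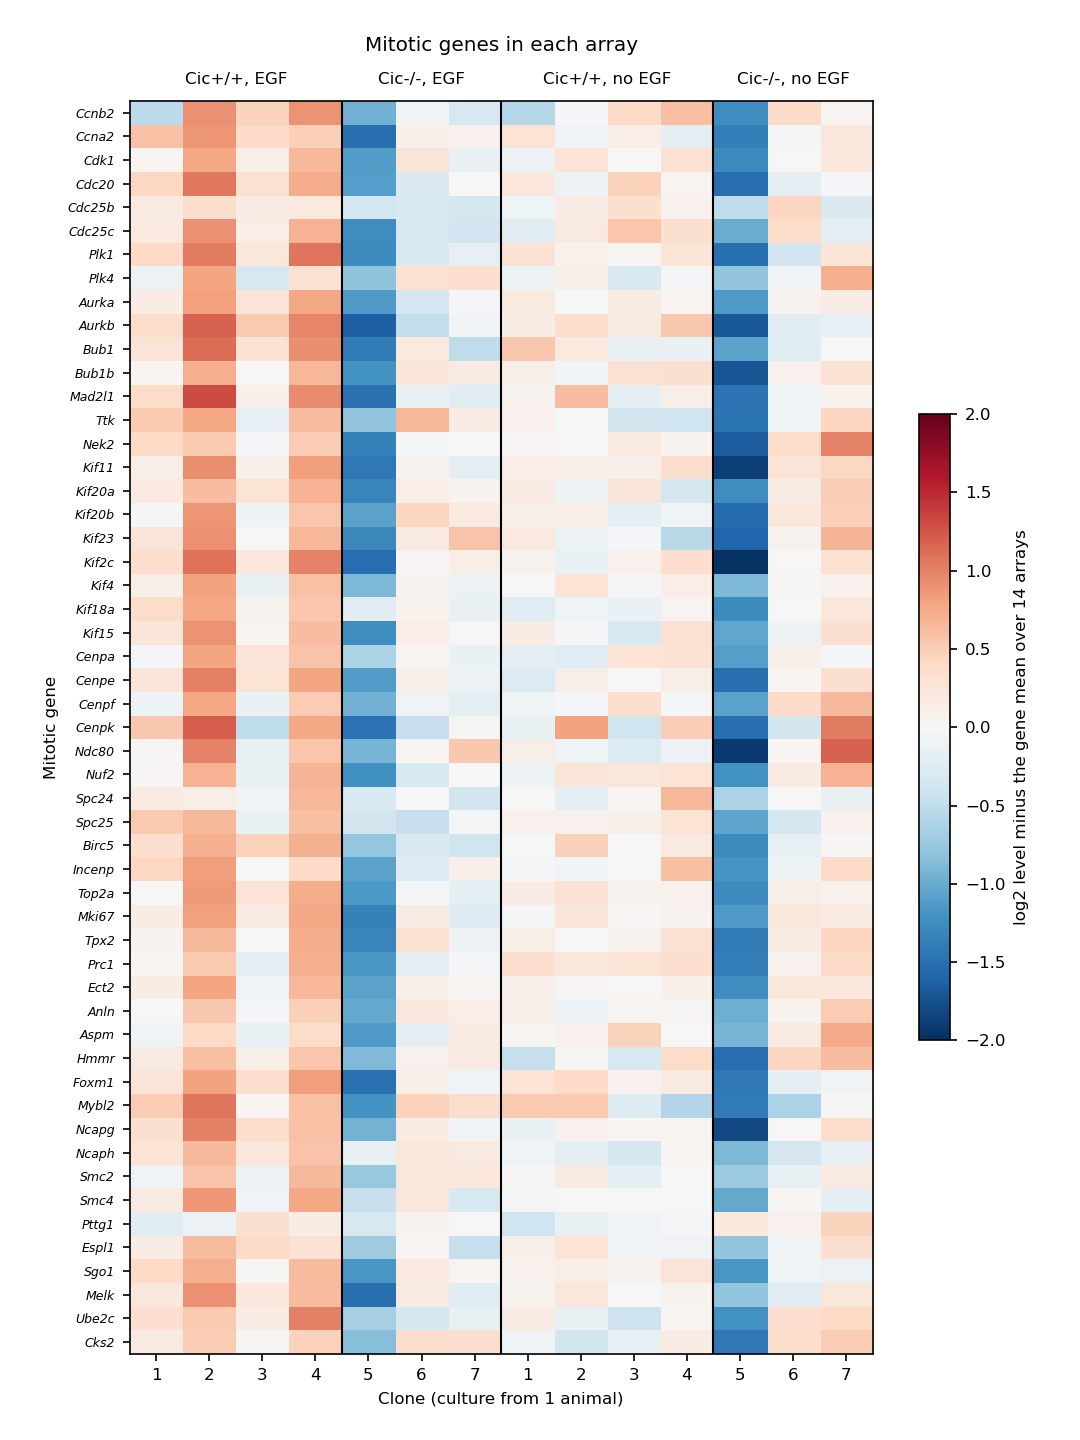
Each row is 1 of the 53 mitotic genes and each column 1 of the 14 arrays, in 4 groups by Cic genotype and EGF; the colour is the log2 level minus that gene's mean over the arrays. The 2 arrays of clone 5 are low for nearly every gene, clones 2 and 4 with EGF are high, and Pttg1 follows neither pattern.

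The largest difference of the list belonged to a kinase that orders mitosis. Aurkb, the Aurora kinase of the chromosomal passenger complex that corrects faulty attachments, measured 9.87, 10.69, 10.03 and 10.48 in Cic+/+ clones 1 to 4 with EGF and 7.87, 9.02 and 9.45 in Cic-/- clones 5 to 7. The groups did not overlap, and the difference was -1.49 ± 0.39 (2.80-fold lower, adjusted p = 0.152). Plk1, the Polo kinase of mitotic entry and spindle assembly, measured 10.25, 10.89, 10.08 and 10.92 against 8.60, 9.56 and 9.69. Its groups were also apart, with a difference of -1.25 ± 0.36 (adjusted p = 0.193). Aurka, the Aurora kinase of the spindle poles, stood at 8.46, 9.13, 8.56 and 9.07 against 7.18, 7.97 and 8.29, a difference of -0.99 ± 0.31 with the groups apart. Melk, a kinase abundant in dividing neural progenitors, differed by -1.01 ± 0.33 and also without overlap.

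The other kinases overlapped between genotypes. Nek2, a kinase that separates centrosomes, measured 5.21 in clone 5 and 6.52 and 6.57 in the other Cic-/- clones, and the lowest Cic+/+ array stood at 6.53. Plk4, the kinase of centriole duplication, measured 7.51, 8.42, 7.31 and 7.92 against 6.82, 7.93 and 7.97. Clones 6 and 7 lay among the Cic+/+ arrays for Plk4, and the difference was -0.22 ± 0.35. Without clone 5 that difference was 0.16.

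All 6 measured genes of Cdk1 and its partners averaged lower in the Cic-/- clones, from -1.13 for Cdc25c to -0.35 for Cks2. Cdk1 itself measured 9.67, 10.40, 9.74 and 10.28 against 8.51, 9.89 and 9.48, so that clone 6 lay within the Cic+/+ range, and its difference was -0.73 ± 0.36. Ccna2, cyclin A2, stood at 10.77, 11.07, 10.56 and 10.65 against 8.67, 10.28 and 10.27, without overlap (-1.02 ± 0.39). Ccnb2, cyclin B2, overlapped between genotypes because Cic+/+ clone 1 was at 9.30 and Cic-/- clone 6 at 9.77 (-0.88 ± 0.42).

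The Cdc25 phosphatases, which remove the inhibitory phosphate from Cdk1, both lay apart between genotypes with EGF. Cdc25c measured 7.23, 7.93, 7.15 and 7.71 against 5.78, 6.71 and 6.64 (-1.13 ± 0.32). Cdc25b measured 8.10, 8.27, 8.09 and 8.12 against 7.57, 7.61 and 7.56, a difference of -0.56 ± 0.19. Of the 53 genes it had the smallest SD among the 3 Cic-/- arrays with EGF (0.029), and leaving out clone 5 kept 98.8% of its difference. Without EGF it measured 7.41, 8.34 and 7.63 in the Cic-/- clones (SD 0.49). Clone 6 then lay above every Cic+/+ array of that medium (7.83 to 8.23). With EGF Cks2, a small subunit that binds Cdk1, was at 9.45 in clone 5. In clones 6 and 7 it was at 10.66 and 10.64, inside the Cic+/+ range of 10.33 to 10.81.

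The spindle checkpoint genes split. Mad2l1, which helps hold Cdc20 inactive, measured 9.49, 10.43, 9.23 and 10.06 in the Cic+/+ clones with EGF and 7.63, 8.99 and 8.90 in the Cic-/- clones, with no overlap (-1.30 ± 0.41, adjusted p = 0.245). Bub1, a checkpoint kinase of the kinetochore, measured 8.39, 9.25, 8.42 and 9.06 against 6.72, 8.32 and 7.61, also apart (-1.23 ± 0.36, adjusted p = 0.195). Bub1b, another member of the complex that inhibits Cdc20, and Ttk, the kinase that starts the checkpoint, overlapped. Bub1b differed by -0.62 ± 0.43 and Ttk by -0.43 ± 0.40, and without clone 5 these values were -0.16 and -0.03.

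Among the kinesins, the microtubule motors of the spindle, all 8 averaged lower in Cic-/- clones with EGF, from -1.11 for Kif2c to -0.48 for Kif20b. Kif2c, which takes microtubules apart at kinetochores, measured 8.16, 8.90, 8.02 and 8.79 against 6.29, 7.83 and 7.94. Kif11, which pushes the spindle poles apart, measured 8.87, 9.69, 8.86 and 9.58 against 7.32, 8.82 and 8.58. Both lay apart between genotypes, with clone 5 more than 1 log2 unit below the other Cic-/- clones. Kif18a, which limits chromosome movement on the spindle, measured 7.92, 8.31, 7.6221 and 8.08 against 7.32, 7.6216 and 7.40. Its groups all but touched, since Cic+/+ clone 3 and Cic-/- clone 6 were equal to 2 decimals, and its clone 5 did not stand apart from the other Cic-/- clones (-0.53 ± 0.28). Kif20a, a motor of the central spindle, differed by -0.82 ± 0.39 without overlap, and Kif15 by -0.82 ± 0.35 with overlap. Kif23, a central spindle motor, differed by -0.65 ± 0.49 and Kif20b by -0.48 ± 0.44. Kif4, a motor bound to chromosomes, gave -0.66 ± 0.29 as the median of 23 probesets, of which 21 were below 0, but 0.47 by its brightest probeset alone.

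The centromere and kinetochore genes had a median difference of -0.68 with EGF. Cenpe, a kinetochore motor, was the kinetochore gene whose groups did not overlap, at 8.24, 8.999, 8.26 and 8.78 against 6.88, 8.10 and 7.88 (-0.95 ± 0.38). Cenpk, of the inner kinetochore, spread widely within each genotype, at 6.39, 7.04, 5.33 and 6.61 against 4.36, 5.38 and 5.86 (-1.14 ± 0.55). Cenpa, the histone variant that marks the centromere, differed by -0.63 ± 0.29, and Cenpf by -0.66 ± 0.36.

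The 4 subunits of the Ndc80 complex, which grips the microtubule, did not run in parallel. Spc25 measured 7.86, 7.98, 7.19 and 7.93 against 6.96, 6.87 and 7.30, overlapping only through Cic+/+ clone 3 (-0.69 ± 0.24). Ndc80 measured 8.04, 8.99, 7.85 and 8.56 against 7.08, 8.04 and 8.55, and only clone 5 stood outside the Cic+/+ range (-0.47 ± 0.54). Nuf2 differed by -0.83 ± 0.39 and Spc24 by -0.45 ± 0.23. Leaving out clone 5 kept 93.8% of the difference of Spc25 and 90.6% of that of Spc24, but 13.4% of that of Ndc80.

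Birc5, also named survivin, which brings Aurora B to the centromere, had the smallest p of the list. It measured 7.38, 7.75, 7.51 and 7.76 in Cic+/+ clones against 6.27, 6.74 and 6.64, with a gap between the groups. The difference was -1.05 ± 0.26 (2.07-fold lower, adjusted p = 0.122), and each of its 8 probesets was lower in the Cic-/- clones. Incenp, the scaffold of the same complex, differed by -0.81 ± 0.35 with overlap.

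The 5 genes of anaphase and cohesion averaged lower as well, with Pttg1 the least. Cdc20, the activator of the anaphase-promoting complex, measured 9.39, 10.04, 9.29 and 9.73 against 7.88, 8.70 and 8.97, with no overlap (-1.10 ± 0.34). Ube2c, the ubiquitin-conjugating enzyme of that complex, measured 10.57, 10.76, 10.38 and 11.25 against 9.57, 9.88 and 10.09, with no overlap (-0.89 ± 0.33). Espl1, the separase that cleaves cohesin, differed by -0.75 ± 0.24 without overlap, and Sgo1, which shields cohesin at the centromere, by -0.76 ± 0.32 with overlap. Pttg1, securin, which keeps separase inactive, measured 7.10, 7.19, 7.63 and 7.45 against 6.98, 7.37 and 7.31, and its difference was -0.12 ± 0.17.

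Of the chromosome genes, Top2a, the topoisomerase that untangles sister DNA, and Ncapg, a condensin subunit, did not overlap between genotypes. Top2a measured 9.68, 10.54, 9.96 and 10.43 against 8.54, 9.65 and 9.49 (-0.92 ± 0.33). Mki67, the proliferation marker Ki-67, measured 10.27, 10.94, 10.29 and 10.90 against 8.77, 10.29 and 9.86, and clone 6 equalled the second lowest Cic+/+ clone to 2 decimals (-0.96 ± 0.36). The condensin subunits Ncapg, Smc4, Smc2 and Ncaph differed by -0.85 ± 0.40, -0.62 ± 0.27, -0.37 ± 0.28 and -0.34 ± 0.19.

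The 6 genes of spindle assembly and cytokinesis had differences between -0.75 and -0.48, and none had groups apart. Tpx2, which seeds spindle microtubules, measured 9.18, 9.75, 9.11 and 9.84 against 7.78, 9.38 and 8.9998. Its clone 6 lay above Cic+/+ clones 1 and 3. Prc1, which bundles the central spindle, differed by -0.74 ± 0.37, Ect2, which starts the cleavage furrow, by -0.70 ± 0.36, and Anln, of the contractile ring, by -0.48 ± 0.33. Aspm and Hmmr, of the spindle poles, differed by -0.52 ± 0.35 and -0.57 ± 0.42.

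Of the regulators of the programme, Foxm1 measured 8.15, 8.69, 8.23 and 8.73 against 6.39, 8.01 and 7.80 with EGF, without overlap (-1.05 ± 0.37, adjusted p = 0.308). Mybl2 measured 6.91, 7.48, 6.44 and 6.99 against 5.21, 6.87 and 6.75, and clones 6 and 7 lay inside the Cic+/+ range (-0.68 ± 0.43).

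Much of the genotype difference followed 1 clone. Averaged over the 53 genes with EGF, the Cic+/+ clones stood at 8.38, 8.96, 8.28 and 8.84, and the Cic-/- clones at 7.16 for clone 5, 8.21 for clone 6 and 8.16 for clone 7. Clones 6 and 7 were thus close below Cic+/+ clone 3, and clone 5 was about 1 log2 unit lower still. Clone 5 was the lowest of the 7 clones for 50 of the 53 genes with EGF (94.3%, all genes 20.3%) and for 52 without EGF (98.1%, all genes 16.4%). The top of the Cic+/+ range came from clone 2, the highest clone for 43 genes with EGF (81.1%, all genes 11.2%), and from clone 4, the highest for 9. In the lists of stem cell markers and cohesin genes clone 5 did not stand apart. Its neural stem cell markers averaged 10.45 with EGF and 10.37 without, and its cohesin genes 9.28 and 9.33, each inside the range of the other clones in the same medium. Its genes of the DREAM and MuvB complexes averaged 8.49 with EGF and 8.59 without, below the other clones in both media (8.74 to 8.995 and 8.70 to 8.97).

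**Figure D2:**
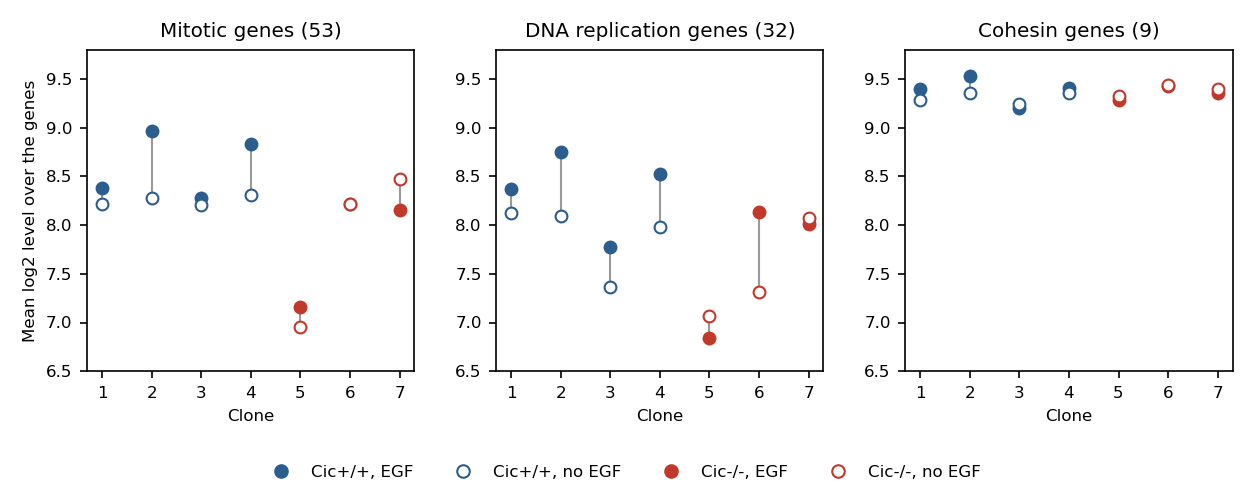
Each point is the mean log2 level, in 1 array, of 53 mitotic, 32 DNA replication or 9 cohesin genes, for clones 1 to 4 (Cic+/+, blue) and 5 to 7 (Cic-/-, red), with EGF (filled) and without (open). Clone 5 is lowest for the mitotic genes in both media, at 7.16 and 6.95, while the cohesin genes stay between 9.20 and 9.53.

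Leaving out clone 5 moved the median difference with EGF from -0.75 to -0.47, and 51 of 53 genes stayed below 0 (all genes 47.7%). Without it 22 genes were lower at an unadjusted p under 0.05 (41.5%, all genes 5.51%), 0 of the 53 passed the adjustment in limma (0.283% of all genes), and the smallest adjusted p was 0.060, again for Birc5 (-0.91 ± 0.18). At least 1.5-fold lower were then 13 genes (24.5%, all genes 4%) in place of 39. The same 21 genes had clones 6 and 7 below every Cic+/+ array, and 11.9% of all genes did. The share of a gene's difference that remained without clone 5 varied widely: 86.7% for Birc5, 84.4% for Ube2c, 73.7% for Cdc25c, 72.7% for Plk1, 70.9% for Cdc20 and 69.3% for Aurkb. For Kif20b it was 3.56%, for Ttk 7.34% and for Smc2 11.5%, and for Cks2 and Plk4 the sign turned. Leaving out any other clone in turn gave medians between -0.95 and -0.66, with every gene below 0. In limma, 14 genes were lower at an unadjusted p under 0.05 without Cic+/+ clone 2 (all genes 3.77%), and 14 without clone 4 (all genes 4.74%). Without clones 1, 3, 6 and 7 in turn the counts were 24, 27, 31 and 33 (all genes 5.3%, 5.25%, 4.88% and 5.6%).

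**Figure D3:**
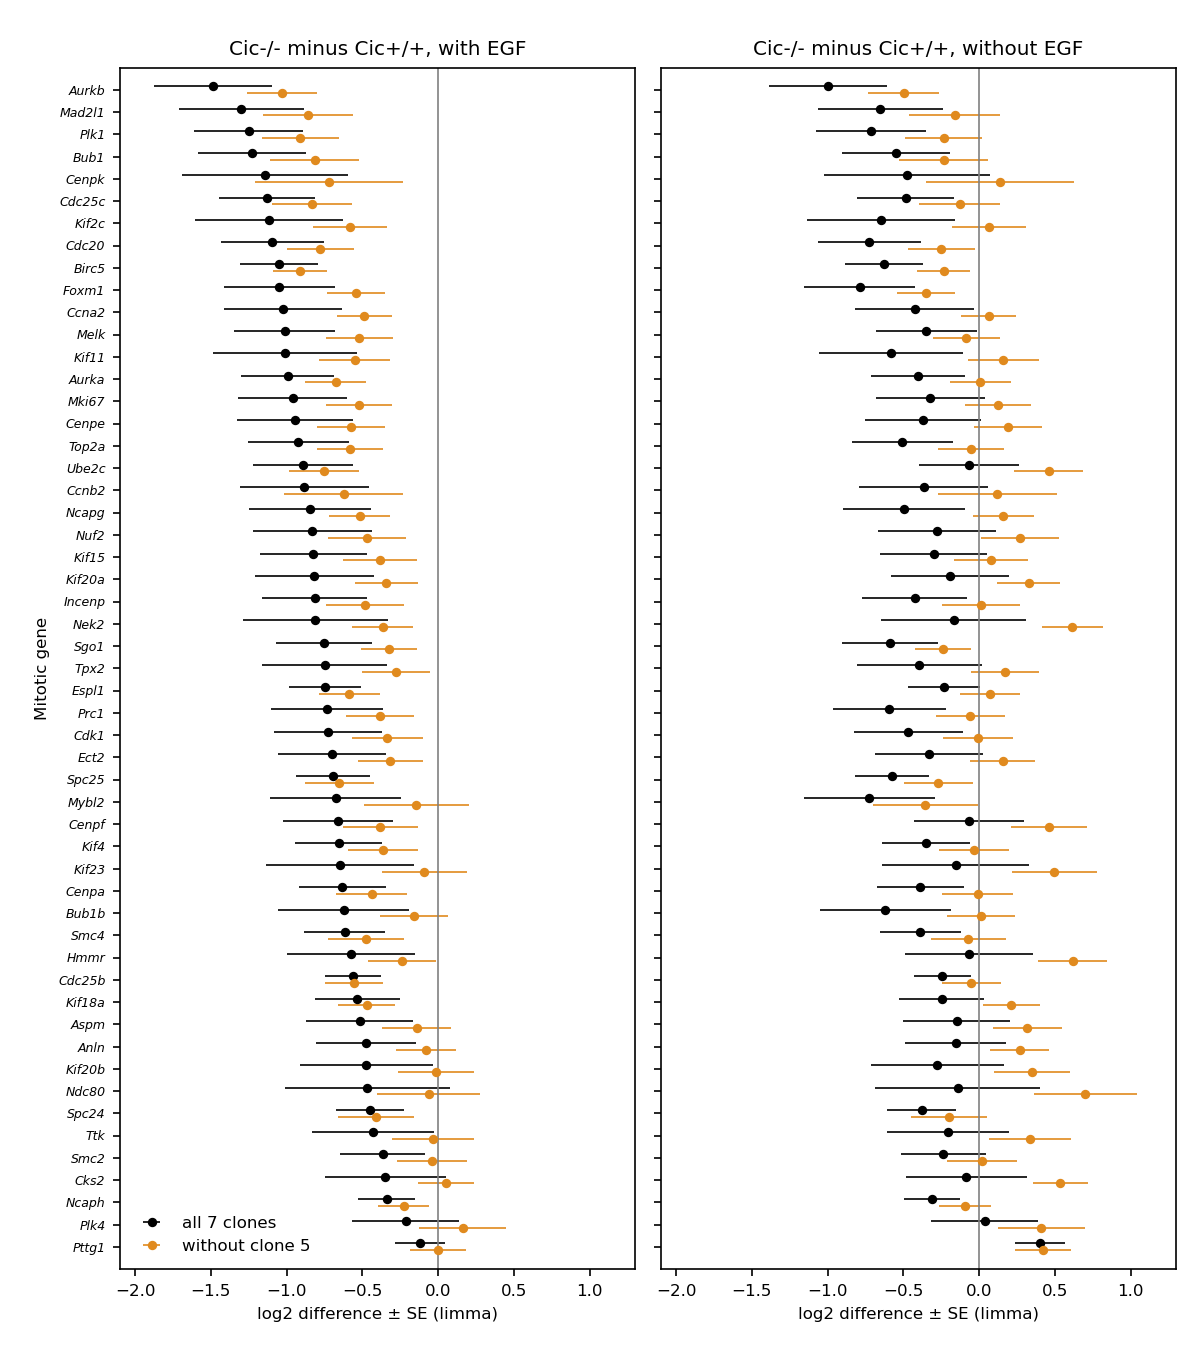
For each mitotic gene, the points give the log2 difference of Cic-/- minus Cic+/+ clones (limma, bars are SE) with EGF on the left and without on the right, with all 7 clones (black) and without clone 5 (orange). With EGF 51 of 53 orange points remain below 0; without EGF 32 lie above it.

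Without EGF the difference between genotypes was smaller and rested on clone 5. The median was -0.37, with 51 of 53 genes below 0 against 50.5% of all genes, from -0.999 ± 0.39 for Aurkb to 0.40 ± 0.17 for Pttg1. In limma 0 of the 53 passed (all genes 0.548%), with 3 lower and 1 higher at an unadjusted p under 0.05 (all genes 5.86% and 4.96%). The smallest adjusted p was 0.356, for Aurkb, and ran from 0.159 to 0.548 over the alternatives. Averaged over the 53 genes, the Cic+/+ clones stood at 8.22, 8.27, 8.21 and 8.31, and the Cic-/- clones at 6.95, 8.21 and 8.47. Clone 6 thus equalled the lowest Cic+/+ clone to 2 decimals and clone 7 lay above all of them. Without clone 5 the median was 0.07, with 21 genes below 0 (all genes 50.1%) and 32 above, 0 lower and 4 higher at an unadjusted p under 0.05 (all genes 6.18% and 5.1%), and 0 passing in limma (0.623% of all genes).

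Groups without overlap in the medium without EGF were found for 3 genes that were lower (5.66%, all genes 5.19%) and 1 that was higher (1.89%, all genes 4.2%). Aurkb measured 9.65, 9.85, 9.68 and 10.05 in Cic+/+ clones and 7.81, 9.28 and 9.34 in Cic-/- clones, the largest difference in this medium. Foxm1 measured 8.17, 8.27, 7.97 and 8.07 against 6.46, 7.71 and 7.83 (-0.79 ± 0.37). Sgo1 measured 6.93, 6.97, 6.91 and 7.10 against 5.68, 6.76 and 6.72 (-0.59 ± 0.32). These 3 genes were picked for having every Cic-/- clone below the controls, so clones 6 and 7 lay there by that choice. Without clone 5 the differences were -0.50, -0.35 and -0.24. Clones 6 and 7 lay below every Cic+/+ array for 3 of the 53 genes (5.66%, all genes 9.56%).

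Other genes of the list named without EGF overlapped between genotypes. Cdc20 differed by -0.72 ± 0.34, Mybl2 by -0.72 ± 0.43, Plk1 by -0.71 ± 0.36 and Mad2l1 by -0.65 ± 0.41. Birc5 differed by -0.63 ± 0.26 and Spc25 by -0.57 ± 0.24. At the other end were Hmmr at -0.06 ± 0.42, Plk4 at 0.04 ± 0.35 and Pttg1. Hmmr turned to 0.62 without clone 5, and Plk4 to -0.34 without clone 7.

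Pttg1 measured 6.90, 7.16, 7.24 and 7.29 in the Cic+/+ clones without EGF and 7.51, 7.39 and 7.75 in the Cic-/- clones, so each Cic-/- clone lay above each control (0.40 ± 0.17, unadjusted p = 0.0299, adjusted p = 0.400). Its 13 probesets did not run one way. In this comparison 8 of them were below 0, they ranged from -0.73 to 0.76, and the difference was -0.070 when the gene was taken as the mean of its probesets and -0.17 by the brightest probeset. The direction for Pttg1 without EGF thus depends on how probesets are joined.

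EGF itself was tested within each genotype. In the Cic+/+ clones 51 of 53 genes averaged higher with EGF (all genes 49.6%), with a median difference of 0.34. In 23 genes every Cic+/+ clone was higher with EGF (43.4%, all genes 13.8%), and in 5 the arrays with EGF lay above all those without (9.43%, all genes 3.44%). In limma 0 of the 53 passed (all genes 0.906%), with 1 higher at an unadjusted p under 0.05 (all genes 5.23%). That gene was Ncaph, the condensin I subunit, which measured 9.03, 9.40, 8.97 and 9.32 with EGF and 8.66, 8.55, 8.40 and 8.78 without in clones 1 to 4. It was higher in every clone, by 0.58 ± 0.18 (adjusted p = 0.155).

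The arrays of a clone are paired by their animal, and with the clone as a block Ncaph passed. Its adjusted p was 0.0253 with a random block (1.96% of all genes passed higher) and 0.0264 with a fixed block (2.29% of all genes). With the fixed block Mad2l1 passed as well, at 0.52 ± 0.13 and an adjusted p of 0.0490. Passing higher were thus 1 of the 53 with the random block (1.89%, all genes 1.96%) and 2 with the fixed block (3.77%, all genes 2.29%). These shares were near those of all genes. At an unadjusted p under 0.05, 26 of the 53 genes were higher with the fixed block (49.1%, all genes 9.28%).

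The other genes with groups apart in the EGF comparison of Cic+/+ clones were Kif18a, Ccna2, Ncapg and Cenpe. Kif18a measured 7.92, 8.31, 7.62 and 8.08 with EGF and 7.30, 7.45, 7.42 and 7.61 without. Ccna2 measured 10.77, 11.07, 10.56 and 10.65 with EGF and 10.46, 10.11, 10.31 and 9.998 without. The largest average differences were those of Ttk (0.61 ± 0.37), Ube2c (0.60 ± 0.31) and Kif23 (0.59 ± 0.45). Kif23 shows how unequal the clones were, at 0.07, 1.03, 0.04 and 1.22 in clones 1 to 4. At the lower end Spc24 stood at 0.10 ± 0.21, Aspm at -0.01 ± 0.33 and Prc1 at -0.02 ± 0.34, with signs for Aspm and Prc1 that changed with the processing.

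The EGF differences of the Cic+/+ clones came mainly from 2 of them. Over the 53 genes the median was 0.72 in clone 2, where every gene was higher with EGF, and 0.47 in clone 4, where 51 were. In clone 1 it was 0.15 and in clone 3 it was 0.08. Without clone 2 the Cic+/+ median was 0.25, and without clone 3 it was 0.46.

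**Figure D4:**
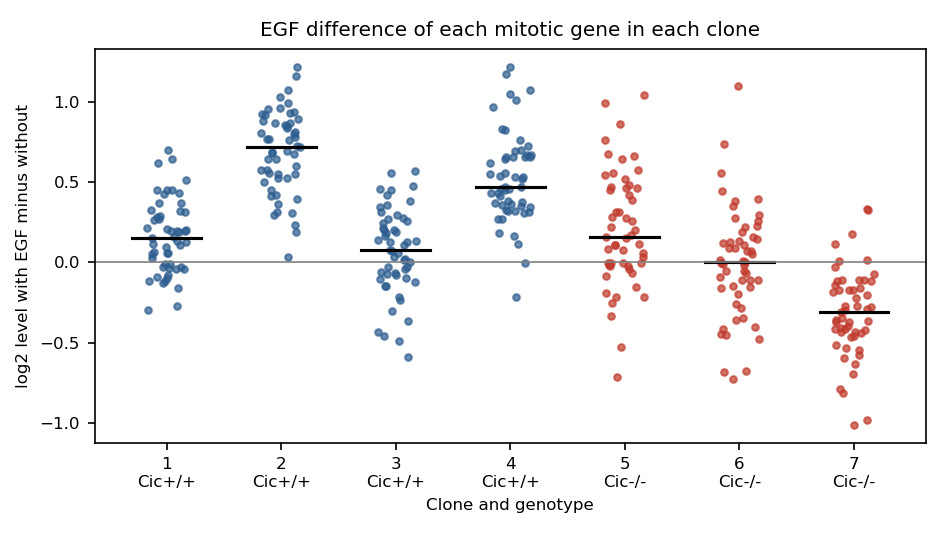
Each point is 1 of the 53 mitotic genes in 1 clone, placed at its log2 level with EGF minus without, and the bar is the median. The medians are 0.15, 0.72, 0.08 and 0.47 in Cic+/+ clones 1 to 4 (blue) and 0.16, 0.0031 and -0.31 in Cic-/- clones 5 to 7 (red).

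In the Cic-/- clones the median EGF difference was -0.05, with 32 genes below 0 (all genes 48.9%) and 21 above. In limma 0 of the 53 passed (all genes 0.19%), with 1 higher and 0 lower (all genes 4.78% and 5.02%) at an unadjusted p under 0.05. Clone medians were 0.16 in clone 5, 0.0031 in clone 6 and -0.31 in clone 7, where 47 of the 53 genes were lower with EGF. Without clone 7 the median was 0.10, and without clone 5 it was -0.14.

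Only Ncaph and Mybl2 were higher with EGF in every Cic-/- clone (3.77%, all genes 18.2%). Ncaph measured 8.62, 8.98 and 8.93 with EGF and 7.85, 8.42 and 8.59 without, a difference of 0.55 ± 0.20 (adjusted p = 0.343) and the only gene of the list with groups apart upward (1.89%, all genes 6.64%). The EGF differences of Ncaph, 0.37, 0.85, 0.57 and 0.53 in the Cic+/+ clones and 0.76, 0.56 and 0.34 in the Cic-/- clones, had 1 direction in all 7. Mybl2 differed by 0.55 ± 0.46 and Ttk by 0.38 ± 0.43.

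Every Cic-/- clone was lower with EGF for 8 genes (15.1%, all genes 18.6%), among them Pttg1, Mad2l1, Mki67, Kif20a, Nuf2 and Aspm. Pttg1 was the only gene of the list whose groups lay apart downward (1.89%, all genes 6.4%). The lowest averages were those of Nuf2 at -0.40 ± 0.42, Cenpf at -0.38 ± 0.39 and Aspm at -0.37 ± 0.38.

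The EGF difference was compared between genotypes by an interaction term, Cic-/- minus Cic+/+. It was below 0 for 52 of 53 genes (all genes 48.1%), with a median of -0.39. In limma 0 of the 53 passed (all genes 0.00577%), with 1 lower at an unadjusted p under 0.05 (all genes 1.07%) and 0 higher (all genes 1.78%). That gene was Pttg1, at -0.52 with an unadjusted p of 0.0434, though its brightest probeset gave 0.13. The lowest values were those of Ube2c at -0.83 ± 0.47, Bub1 at -0.68 ± 0.50 and Cenpk at -0.67 ± 0.77. The highest were Mybl2 at 0.05 ± 0.61, Bub1b at -0.0045 ± 0.61 and Ncaph at -0.03 ± 0.26. With the clone as a fixed block 13 genes were lower at an unadjusted p under 0.05 (24.5%, all genes 2.81%) and 0 passed (all genes 0.0173%). In 4 genes every Cic+/+ clone was higher and every Cic-/- clone lower with EGF (7.55%, all genes 0.491%). Pttg1 was 1 of these, though 8 of its 13 probesets averaged lower with EGF in the Cic+/+ clones. The EGF difference in Cic-/- clones and that in Cic+/+ clones were not shown to differ for any gene of the list.

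Averaging the 2 arrays of each clone gave 1 value per animal. Over these clone means 52 of 53 genes were lower in the Cic-/- clones (all genes 48.3%), with a median of -0.57. In 11 genes the 3 Cic-/- clones lay below the 4 Cic+/+ clones (20.8%, all genes 6.18%), and these were Cdc20, Plk1, Aurka, Aurkb, Bub1, Mad2l1, Birc5, Top2a, Foxm1, Espl1 and Melk. In limma 0 of the 53 passed (all genes 0.254%), and 16 were lower at an unadjusted p under 0.05 (30.2%, all genes 5.94%). The lowest were Aurkb at -1.24 ± 0.35, Plk1 at -0.98 ± 0.31 and Mad2l1 at -0.98 ± 0.37, and the smallest adjusted p was 0.195, for Birc5. The highest were Pttg1 at 0.14 ± 0.14, Plk4 at -0.09 ± 0.31 and Cks2 at -0.22 ± 0.35. Without clone 5 the median was -0.20 and 41 genes were below 0 (all genes 48.8%).

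The variation of each gene over the 14 arrays was divided into shares, as a description with no test. Between genotypes lay a median of 27.0% of the variation of a mitotic gene, against 7.47% over all genes. Between clones of 1 genotype lay 55.9%, against 42.2%, while EGF took 2.66%, against 7.49%, and the interaction of EGF with genotype 3.11%, against 2.02%. These shares are not scaled by their degrees of freedom, which were 5 for clones and 1 for each of the others. The genotype share was largest for Birc5 (59.6%), Aurkb (58.1%) and Spc25 (50.1%), and each of these had more variation between genotypes than between clones. At the other end were Plk4, with 84.8% between clones and 0.926% between genotypes, and Cks2, with 80.1% between clones. Ncaph had the largest EGF share, at 54.2%.

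**Figure D5:**
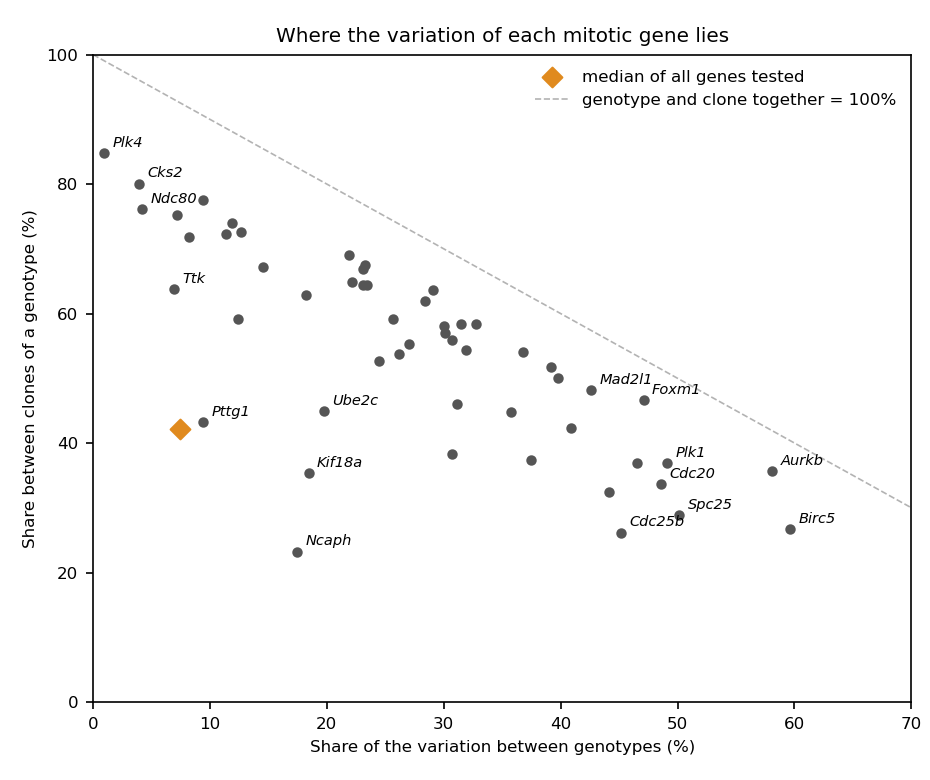
Each point is 1 of the 53 mitotic genes, placed by the percent of its sum of squares over the 14 arrays that lies between the genotypes (x) and between clones of a genotype (y); the diamond is the median of all genes tested, at 7.47% and 42.2%. Birc5 and Aurkb lie farthest to the right, at 59.6% and 58.1%, and Plk4 and Cks2 at the upper left.

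The genes moved together from array to array. The mean pairwise correlation over the 14 arrays was 0.80 among the 53 genes, and without the arrays of clone 5 it was 0.56. The 32 DNA replication genes did so as well, at 0.81, and at 0.74 without clone 5. Over all genes the mean was 0.0014, where positive and negative correlations cancel. These points share clones, and a correlation across genes is not one across independent replicates. Pttg1 followed the mean of the other genes least (r = 0.10), followed by Cdc25b (0.65), Spc24 (0.67) and Ncaph (0.75).

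Further mitotic genes, not on the list of 54, were taken from 4 additional lists. With EGF, 14 of 14 other inner kinetochore genes, 11 of 13 other outer kinetochore and checkpoint genes, 17 of 18 other spindle and cytokinesis genes and 10 of 10 other mitotic entry and condensin genes were below 0. Of all genes, 47.3% were below 0. The medians of the 4 lists were -0.60, -0.40, -0.75 and -0.60. Only 2 of these genes passed in limma, where 0.237% of all genes passed lower. Nusap1, a spindle microtubule protein, was lower by 1.80 ± 0.29 (adjusted p = 0.0150), and Hjurp, the chaperone that loads Cenpa, by 0.99 ± 0.19 (adjusted p = 0.0471). Hjurp was measured by only 1 probeset, and Nusap1 by 13. No other gene of these lists passed, and none passed without EGF, where the medians were -0.27, -0.34, -0.38 and -0.29.

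Genes with related roles that are not confined to dividing cells had smaller median differences, mostly below 0. For comparison, 47.3% of all genes were below 0 between genotypes with EGF. The 9 cohesin genes, which hold sister chromatids together, had a median genotype difference of -0.03 with EGF, with 6 below 0. They averaged 9.20 to 9.53 in every array. The 13 core subunits of the anaphase-promoting complex had a median of -0.17, with 11 below 0, against -1.10 for its activator Cdc20. The 11 DREAM and MuvB genes had a median of -0.19, with 10 below 0. At an unadjusted p under 0.05, 3 of these complex subunits and 2 of the DREAM and MuvB genes were lower (all genes 5.51%). Higher was 1 subunit (all genes 5.11%), and 0 in either list passed in limma (all genes 0.306%). The 32 DNA replication genes, which act in S phase, resembled the mitotic genes, with 32 of 32 below 0 and a median of -0.71. Their clone averages with EGF were 8.37, 8.75, 7.78 and 8.53 in the Cic+/+ clones and 6.84, 8.14 and 8.02 in the Cic-/- clones. For these genes Cic+/+ clone 3 lay below clones 6 and 7. The EGF difference in Cic-/- clones had a median of 0.18 for the replication genes, with 24 of 32 above 0 (all genes 51.1%). For the mitotic genes it was -0.05. The rise of the replication genes came from clone 6, where they averaged 8.14 with EGF and 7.31 without, while the mitotic genes averaged 8.21 in both. On average the replication genes were lower with EGF in the other Cic-/- clones. They stood at 6.84 with EGF and 7.06 without in clone 5, and at 8.02 and 8.07 in clone 7.

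Markers of other cell types also differed between the genotypes. All 6 oligodendrocyte progenitor markers averaged lower in the Cic-/- clones with EGF, and their array averages were 9.73 to 10.25 in Cic+/+ and 8.82 to 9.25 in Cic-/- clones. Among them Pdgfra, the PDGF receptor of these progenitors, was lower by 2.61 ± 0.38 (adjusted p = 0.00869). Cspg4, Olig1 and Olig2 differed least, with means of 9.56, 12.62 and 12.53 in Cic+/+ clones and 9.38, 12.47 and 12.23 in Cic-/- clones. Clone 5, at 8.92, lay between clones 6 and 7 for the 6 markers. Without EGF the array averages overlapped between genotypes, at 10.33 to 10.67 in Cic+/+ and 9.69 to 10.48 in Cic-/- clones. Cspg4 then averaged higher in the Cic-/- clones (9.62 against 9.49). The part of these markers in the differences of the mitotic genes was not tested.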

How the data were processed

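RNA of 14 cultures was hybridised to Affymetrix arrays after labelling with biotin. Per the submitters' processing notes the values were made with RMA, which corrects background, normalises between arrays and summarises probes; the deposited values are log2 levels of 269751 probesets, used as deposited. Of these, 233753 name 1 gene, 5106 several and 30892 none in the platform annotation; 2247 old symbols were updated. The 25% of genes with the lowest mean level (up to 4.40) were left out, which leaves 17326; all 53 mitotic genes were above it. limma 3.58.1 (R 4.3.3) fitted 4 group means to all 14 arrays without a block (10 residual degrees of freedom), and p-values were adjusted by Benjamini-Hochberg over all genes tested. The sums of squares were split by genotype, clone, EGF and their interaction. The number of arrays limits the precision. The limma step was tested on simulated data. The arrays of a clone come from the same animal; their deviations from the group means correlated in every clone (0.16 to 0.62), above any other clone. The genes described in full are a set of central mitotic genes and, in each comparison, those that passed and the 3 highest and 3 lowest. The members and lists were chosen with earlier results of these data known. Alternatives were the joining of probesets, the dim filter, the prior, the array scaling, the samples fitted, the clone as a replicate block and each clone left out.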

Additional observations from a re-analysis of the deposited data

Results flagged for a closer look

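In groups of 4 arrays, 6 values of mitotic genes stood far from the others of their group, out of 108 sets of 4 looked at (the 53 genes and their mean, in both media); chance gives about 1 in 20. With EGF, Spc25 was at 7.19 in Cic+/+ clone 3, against 7.86 to 7.98 in the other Cic+/+ clones. Without EGF, clone 3 was high for Cenpf (7.92, others 7.50 to 7.52), clone 4 was high for Incenp (8.12, others 7.47 to 7.51), Kif11 (9.11, others 8.85 to 8.89) and Spc25 (7.61, others 7.41 to 7.43), and clone 1 was low for Nuf2 (8.73, others 9.05 to 9.10).

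For 4 mitotic genes every Cic+/+ clone was higher with EGF and every Cic-/- clone lower (7.55%, all genes 0.491%). Of the 13 probesets of Pttg1, 1 of the 4 genes, 8 averaged lower with EGF in the Cic+/+ clones, with a median of -0.14. The EGF difference, Cic-/- minus Cic+/+, was -0.63 for Kif20a, -0.65 for Mad2l1, -0.64 for Mki67 and -0.52 for Pttg1. None passed the limma interaction term after adjustment.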

How the results depend on the processing

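The median difference of the 53 genes kept its direction under every alternative that used all clones. With each clone left out in turn it ran from -0.95 to -0.47 for the genotype with EGF, from -0.64 to 0.07 without EGF, from 0.25 to 0.46 for EGF in Cic+/+ clones, from -0.14 to 0.10 for EGF in Cic-/- clones, from -0.53 to -0.26 for the interaction and from -0.82 to -0.20 over clone means. In limma 0 of the 53 genes passed under any alternative, except for EGF in Cic+/+ clones, where 1 passed with a random replicate block (Ncaph) and 2 with a fixed replicate block (Ncaph and Mad2l1); the blocks changed no other call.

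Signs turned for some differences, none of which had passed; the cause was not tested. Kif4 with EGF gave 0.47 by its brightest probeset. Aspm for EGF in Cic+/+ clones gave 0.18 by the mean of probesets, 0.081 by the brightest, 0.019 with arrays centred, 0.015 after quantile normalization, and -0.13 to 0.19 with a clone left out. Prc1 gave 0.028, 0.10 and 0.0057 under the first 3 of these, and -0.15 to 0.13 with a clone left out. Ttk for EGF in Cic-/- clones gave -0.012 by the mean of probesets, and Mybl2 in the interaction -0.30. Pttg1 gave -0.070 (mean) and -0.17 (brightest) without EGF, -0.10 and -0.11 over clone means, and 0.13 by the brightest probeset in the interaction.

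With each clone left out in turn, signs also turned for Cks2 (-0.55 to 0.053) and Plk4 (-0.41 to 0.16) with EGF, Hmmr (-0.45 to 0.62) and Plk4 (-0.34 to 0.41) without EGF, and Cks2 (-0.49 to 0.30) and Plk4 (-0.38 to 0.29) over clone means. In the interaction they turned for Bub1b (-0.17 to 0.19), Mybl2 (-0.23 to 0.27) and Ncaph (-0.14 to 0.079).

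The count of all genes passing moved more. For EGF in Cic+/+ clones it was 157, 256 with the mean of probesets, 893 and 966 with the random and fixed block, and 17 to 217 with a clone left out. For EGF in Cic-/- clones it was 33, 366 and 520 with the blocks, 3 with only the arrays compared, 51 to 70 under the mean of probesets, the stricter filter, the other prior and the other scalings, and 0 to 68 with a clone left out (0 without clone 5 or clone 6). For the genotype it was 53 with EGF (80 with the mean of probesets, 34 with only the arrays compared, 18 to 59 with a clone left out) and 95 without (169, 43, and 52 to 124), and over clone means 44 (24 to 61 with a clone left out). In the interaction 1 gene passed, and 0 to 7 under the alternatives.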
